A study of Mus musculus with 21 samples.

Results

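Interferon response genes were read out in mouse microglia, the resident macrophages of the brain, with and without apolipoprotein E (ApoE), the lipid carrier protein encoded by Apoe. The 43 genes were chosen by name: 5 sensors of foreign or displaced nucleic acid, 4 transcription factors of the interferon pathway and 34 effectors. All 43 were among the 18079 genes of the genotype table used here, and 41 were among the 13297 genes of the injection table, which did not list Oas3 and Ifi44. The study asked what ApoE does to microglial RNA, in 21 libraries that fall into 4 groups. The genotype table held 7 libraries labelled as uninjected wild-type (WT) females of strain C57BL/6 and 4 labelled as uninjected females of strain B6.129P2-Apoetm1Unc/J, in which Apoe was disrupted by targeting (KO). The injection table held 10 libraries labelled as males of that same knockout strain, 5 from brains injected with phosphate-buffered saline (PBS) and 5 from brains injected with recombinant APOE protein (rAPOE) made up in PBS, so both injected groups lacked their own ApoE. Mice were 12 to 18 weeks old. Per the labels' protocols, the left hemisphere was injected and tissue was taken 16 h later from the injected and the opposite side. The labels do not say which side a library came from, and WT and KO mice also differ in strain, so genotype and strain cannot be told apart. Nor do they state that each library is a mouse of its own, and the p-values below therefore reflect the scatter among these libraries, some of which may be technical.

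Interferons are secreted proteins that cells make when sensors such as RIG-I, MDA5 or ZBP1 meet viral or displaced nucleic acid. Interferon binds receptors that signal through JAK kinases to a transcription factor complex that holds STAT2 and IRF9, and this complex binds the interferon-stimulated response element (ISRE) in the promoters of a large set of genes whose products block virus entry, translation and replication. Microglia are known to carry out this programme in infection, ageing and neurodegeneration.

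Values are normalised counts, each a gene's read count divided by a library-wide factor, and differences are on the log2(normalised count + 1) scale with the standard error (SE) from limma. Genes whose mean in their table reached 10 were tested, and a gene is said to have passed where its Benjamini-Hochberg adjusted p over all of these was under 0.05. Libraries held 2016972 to 3054976 reads (WT), 4247865 to 4969287 (KO), 704225 to 1347501 (PBS) and 857059 to 1119059 (rAPOE). Apoe, the targeted gene, stood at 13196 to 17163 in WT libraries 1, 2, 3, 4, 6 and 7, at 1011 in the library labelled WT 8, at 0 to 23.1 in the KO libraries and at 0 to 8.54 in the injected libraries. Y-linked reads numbered 11 to 36 in the WT libraries other than WT 8, and WT 8 and the KO libraries held none, although all are labelled as females. PBS library 5 and rAPOE library 5, labelled as males, held no Y-linked reads and Xist at 979 and 718. Each main result is therefore also given without WT 8, or without both injected libraries numbered 5. Microglial markers were abundant in every library, with summed values of 46257 to 76075 in the genotype table and 9132 to 24656 in the injection table. Each pair of libraries within a group differed by more than counting noise.

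Promoter stretches that hold the sequence through which interferon signalling is known to act are shown first. RefSeq windows on GRCm38.p6, from 250 bases before to 50 bases after each transcript start, were found for 34 of the 43 genes, and not for Dhx58, Zbp1, Ifi204, Oas2, Usp18, Mx1, Ifi27l2a, Rtp4 and Parp14. The core of the response element was searched as GAAANNGAAA on both strands. The stretches below belong to the 4 genes with the smallest adjusted p after injection whose window held it. They were thus chosen for holding it. Ifit2, with a limma adjusted p of 0.0653, came before Rsad2 (0.106), but its windows held 0 matches and are not shown. Neither Ifit2 nor Rsad2 passed. Capitals mark the matches, and each stretch runs 5′ to 3′ on the strand of the gene, which is the minus strand for all 4.
Isg15, chr4:156200819-156200968: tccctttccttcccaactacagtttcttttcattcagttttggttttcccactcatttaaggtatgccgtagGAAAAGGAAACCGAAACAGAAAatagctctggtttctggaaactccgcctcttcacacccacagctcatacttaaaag
Bst2, chr8:71537473-71537622: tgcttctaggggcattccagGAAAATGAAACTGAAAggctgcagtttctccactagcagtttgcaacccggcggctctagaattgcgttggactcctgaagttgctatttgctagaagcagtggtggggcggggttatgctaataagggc
Rsad2, chr12:26456453-26456602: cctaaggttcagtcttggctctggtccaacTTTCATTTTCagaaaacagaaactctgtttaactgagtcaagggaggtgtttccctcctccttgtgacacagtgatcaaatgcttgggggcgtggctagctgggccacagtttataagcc
Ifitm3, chr7:141010716-141010742: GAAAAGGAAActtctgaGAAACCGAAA

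In Isg15 a run of 22 bases held 3 overlapping matches, and in Bst2 a run of 16 bases held 2. The match of Rsad2 lay on the opposite strand of the gene. Both matches of Ifitm3 lay just past the annotated start, so the bases from one to the other are shown alone. The core was in the window of 19 of the 34 genes (55.9%), against 3.99% of the 27025 genes that had a window, or 3.44% of all 32851 windows. These are matches of letters and not measured binding, and a window without a match says only that the letters are not in it.

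**Figure D1:**
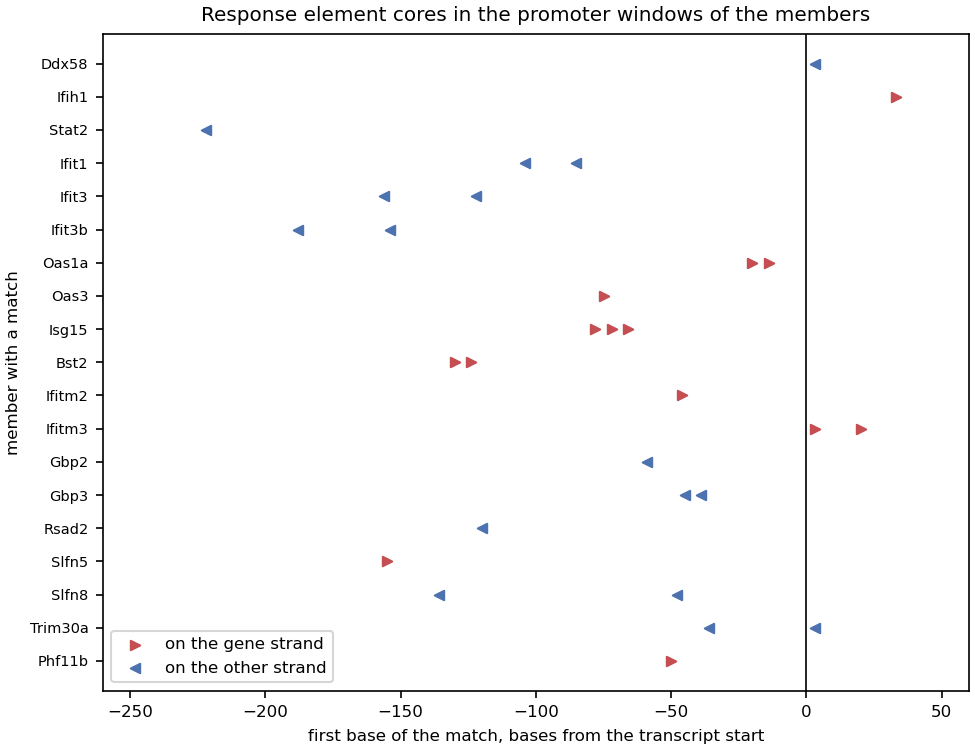
Response element cores in the promoter windows of the 19 members that hold one. The horizontal axis is the distance of the first base of a match from the transcript start in bases, each line is a member, and the arrowhead gives the strand. Most matches lie before the start, and those of Ddx58, Ifih1 and Ifitm3 and one match of Trim30a lie after it.

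After rAPOE injection, 3 of the 28 interferon response genes tested were higher than after PBS and 0 were lower: Ifitm3, which keeps enveloped viruses from entering the cell, Isg15, a ubiquitin-like protein that is attached to other proteins, and Bst2 (tetherin), which holds budding virus at the cell surface. Over all 7066 genes tested, 0.368% passed as higher and 0.113% as lower. At an unadjusted p under 0.05 in limma, 15 of the 28 were higher and 0 lower, against 5.22% and 5.99% of all genes tested. With edgeR's quasi-likelihood test on recovered reads the same 3 passed as higher and 0 as lower, against 0.326% and 0.0142% of all genes. Without rAPOE library 5 the count was 1 (Ifitm3), against 0.185% of all genes higher and 0.0426% lower. Without rAPOE library 1 it was 2 (Ifitm3 and Bst2), against 0.268% higher and 0.0424% lower. The difference was above 0 for 38 of the 41 genes listed, against 50.9% of all genes listed, and its median was 1.37 over the 41 and 0.02 over all genes listed. Over the genes tested, the median was 1.70 for the 28 and −0.01 for all 7066. In 5 of the 41 every rAPOE library was above every PBS library (all genes 0.933%), and in none was every rAPOE library below (all genes 0.91%). Of the remaining 13 genes listed, each had a mean under 10 and was not tested. The list was chosen with these results known, and the counts describe it without a test of the list.

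**Figure D2:**
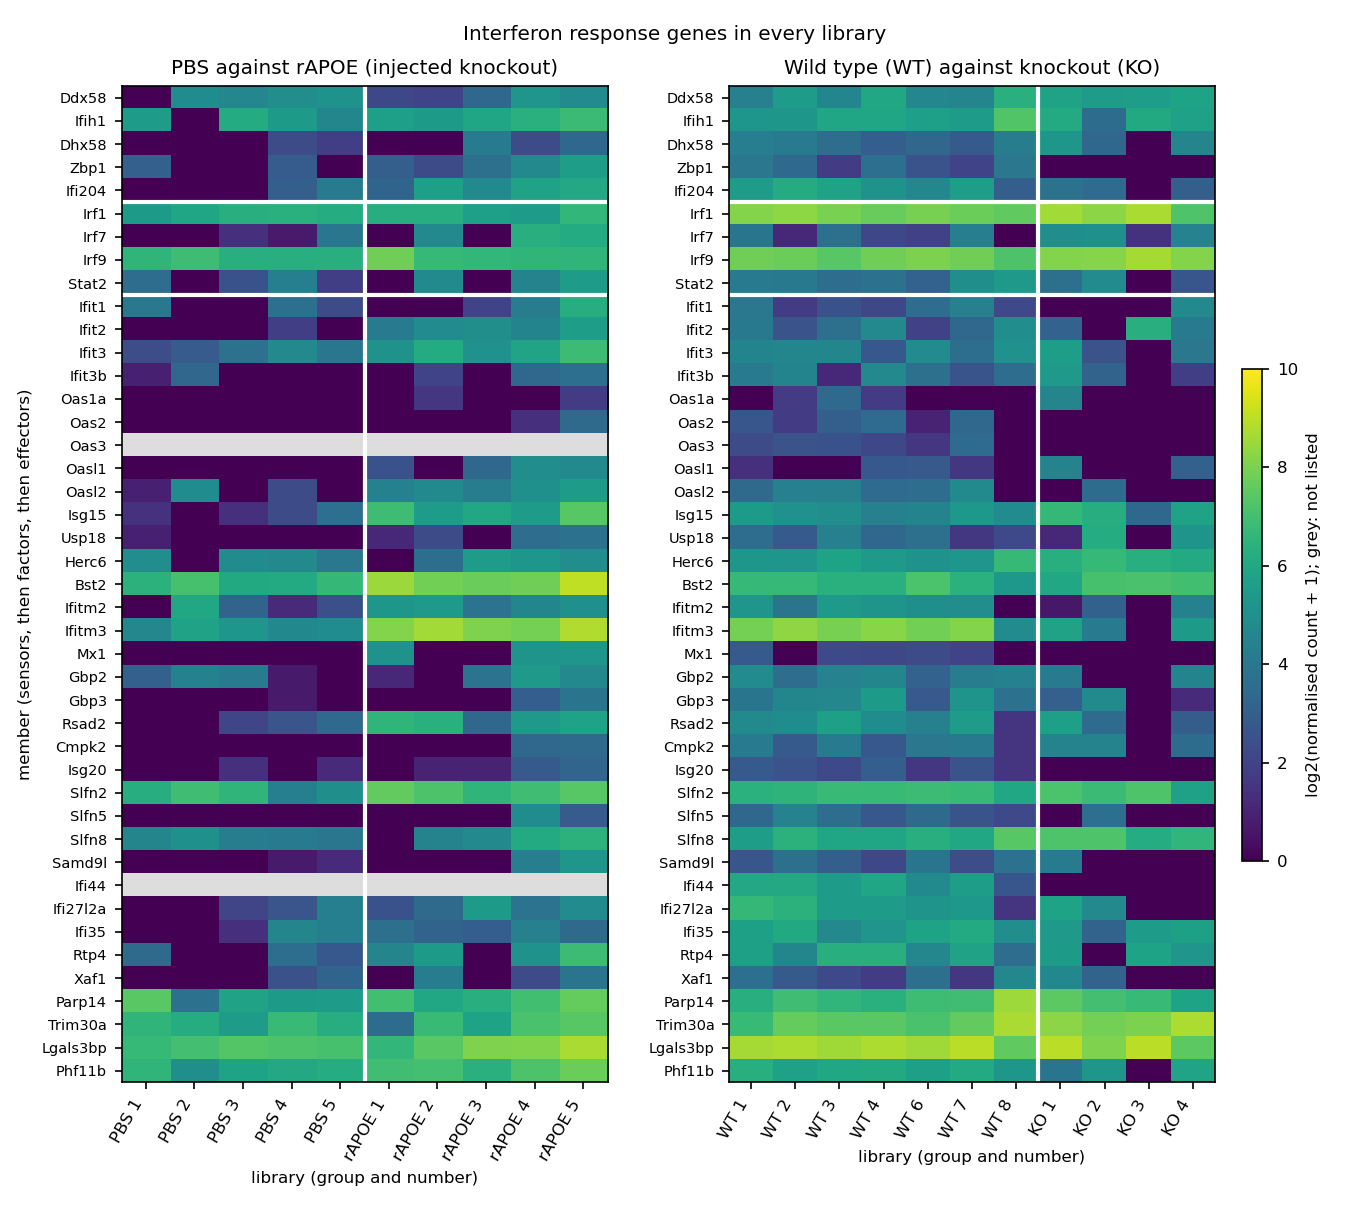
Values of the 43 genes in every library, injection table on the left and genotype table on the right. Each line is a gene (sensors, factors and effectors apart), each column a library, and the colour is log2(normalised count + 1). The columns of rAPOE libraries 4 and 5 are the brightest of the injection table and that of KO library 3 is the darkest of the genotype table.

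Ifitm3 rose furthest from the spread between libraries. Ifitm3 stood at 24.0, 53.1, 36.8, 24.4 and 28.3 in PBS libraries 1 to 5 and at 283, 394, 267, 237 and 452 in rAPOE libraries 1 to 5. The groups did not overlap, and PBS library 2 was the highest of its group. The means were 33.3 ± 12.2 and 327 ± 92.2 (SD, n = 5 each), a ratio of 9.81, and the difference was 3.28 (SE 0.35, limma adjusted p = 3.22e-05). Without both libraries numbered 5 it was 3.11 (adjusted p = 5.19e-04), and it passed in all 21 alternatives run for this comparison, at 3.07 to 3.59. It is encoded on chromosome 7, minus strand, from 141009586 to 141010770 (GRCm38).

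Isg15 was near absent after PBS. The PBS libraries held 1.65, 0, 1.60, 3.95 and 11.6, which are 2, 0, 1, 6 and 18 reads, and the rAPOE libraries held 118, 45.4, 63.2, 43.5 and 168. The groups did not overlap, and libraries 1 and 5 were the highest of the rAPOE group. Means were 3.76 ± 4.60 and 87.6 ± 54.0 (SD, n = 5 each), a ratio of 23.3, and the difference was 4.51 (SE 0.86, limma adjusted p = 0.0121). It passed no longer without rAPOE library 1 (4.35, adjusted p = 0.0677), without rAPOE library 5 (4.23, adjusted p = 0.113) or without both libraries numbered 5 (4.70, adjusted p = 0.118). It is encoded on chromosome 4, minus strand, from 156199424 to 156200818.

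Bst2 was read in each injected library. Its values were 85.2, 137, 67.2, 68.5 and 100.4 after PBS and 357, 230.0, 207, 225 and 531 after rAPOE. The groups did not overlap, and rAPOE library 5 was the highest. Means were 91.6 ± 28.6 and 310.0 ± 137 (SD, n = 5 each), a ratio of 3.38, and the difference was 1.70 (SE 0.33, limma adjusted p = 0.0121). It passed no longer without rAPOE library 5 (1.48, adjusted p = 0.0731) or without both libraries numbered 5 (1.53, adjusted p = 0.126). It is encoded on chromosome 8, minus strand, from 71534255 to 71537456.

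**Figure D3:**
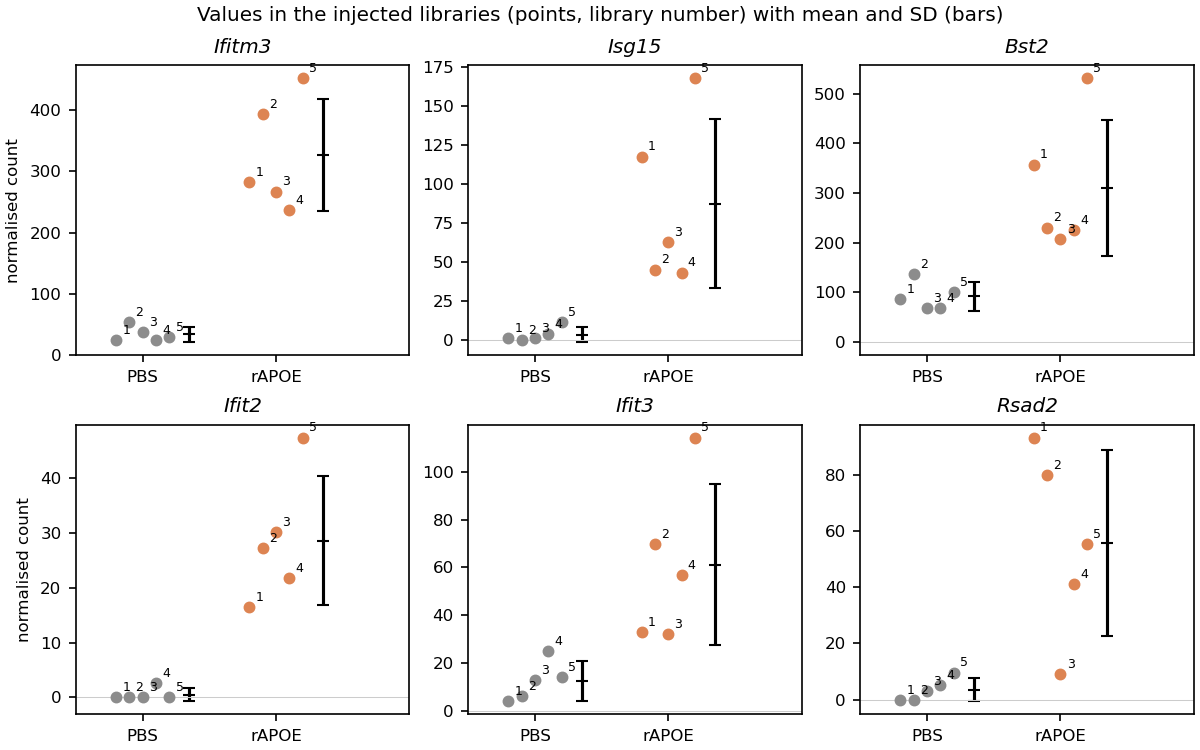
Normalised counts of Ifitm3, Isg15, Bst2, Ifit2, Ifit3 and Rsad2 in the 5 PBS and 5 rAPOE libraries. Points are libraries with their number, and bars are the mean and SD of a group. The groups are apart in the first 5 genes and overlap in Rsad2.

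Among the sensors, none of the 4 tested passed in limma or edgeR, and 2 of them, Zbp1 and Ifi204, were higher at an unadjusted p under 0.05. Ifi204, a sensor of DNA in the nucleus and cytosol, had the largest difference of them. Ifi204 stood at 0, 0, 0, 7.24 and 16.1 after PBS and at 8.25, 49.4, 26.1, 53.5 and 63.7 after rAPOE. rAPOE library 1 lay below PBS library 5, so the groups overlapped. The difference was 3.65 (SE 1.10, limma adjusted p = 0.184). Zbp1, which senses nucleic acid in the Z form and can start necroptosis, stood at 7.45, 0, 0, 6.59 and 0 after PBS and at 7.07, 4.04, 12.0, 24.8 and 46.6 after rAPOE. The 2 highest values were those of rAPOE libraries 4 and 5, and the difference was 2.66 (SE 1.17, limma adjusted p = 0.405).

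The RIG-I-like receptors, which bind viral RNA in the cytosol, showed no call either. Ifih1 (MDA5) stood at 44.7, 0, 70.4, 42.1 and 23.2 after PBS and at 49.5, 42.4, 59.2, 79.9 and 112 after rAPOE. The groups overlapped, with a difference of 1.69 (SE 0.85, limma adjusted p = 0.475). Ddx58 (RIG-I) stood at 0, 27.8, 24.0, 29.6 and 32.8 after PBS and at 3.54, 3.03, 9.03, 36.5 and 27.2 after rAPOE. It was the only sensor with a difference below 0, −0.39 (SE 1.09, limma adjusted p = 0.931), with low values in rAPOE libraries 1 to 3. Dhx58 (LGP2), which modulates the other receptors of the family, was under the minimum mean, at 0 to 3.95 after PBS and 0 to 16.1 after rAPOE.

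Of the 4 factors, 0 passed in limma or edgeR and 0 reached an unadjusted p under 0.05. Irf7, the factor that amplifies interferon production and is itself induced, stood at 0, 0, 1.60, 0.659 and 14.2 after PBS and at 0, 25.2, 0, 76.0 and 70.7 after rAPOE. The rAPOE libraries were thus apart from each other, with 1 and 3 at 0 and 2, 4 and 5 above every PBS library. The difference was 2.22 (SE 1.44, limma adjusted p = 0.589). Stat2, a subunit of the interferon complex, stood at 10.8, 0, 4.80, 19.1 and 2.57 after PBS and at 0, 26.2, 0, 21.0 and 45.1 after rAPOE, a difference of 0.50 (SE 1.33, limma adjusted p = 0.927). Again libraries 1 and 3 were at 0.

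Irf9, the DNA-binding part of that complex, stood at 91.0, 119, 76.8, 77.0 and 79.2 after PBS and at 224, 104, 96.4, 93.1 and 91.7 after rAPOE. Apart from rAPOE library 1, the values of both groups lay between 76.8 and 119, and the difference was 0.38 (SE 0.35, limma adjusted p = 0.730). Irf1, a factor shared by interferon-γ and inflammatory signalling, stood at 42.2, 59.4, 78.4, 81.0 and 71.4 after PBS and at 74.2, 74.7, 49.2, 43.5 and 97.9 after rAPOE. The groups overlapped, with the highest value in rAPOE library 5 and the lowest in PBS library 1, and a difference of 0.01 (SE 0.40, limma adjusted p = 0.998).

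Effectors held the 3 genes that passed, out of 20 tested and 32 listed. For 30 of the 32 the difference was above 0, and the median over the 32 was 1.43, beside 1.69 for the 5 sensors and 0.44 for the 4 factors. Some of the IFIT proteins bind viral RNA that lacks the marks of a host cap. Ifit2 stood at 0, 0, 0, 2.63 and 0 after PBS and at 16.5, 27.2, 30.1, 21.7 and 47.4 after rAPOE. The groups did not overlap, but with a difference of 4.43 (SE 1.05) the limma adjusted p was 0.0653, so Ifit2 did not pass. With a pseudocount of 5 it passed (2.56, adjusted p = 0.0377), as it did after quantile rescaling (4.57, adjusted p = 0.0329). Ifit3 stood at 4.14, 6.32, 12.8, 25.0 and 14.2 after PBS and at 33.0, 69.6, 32.1, 56.6 and 114 after rAPOE. Again the groups were apart, and the difference of 2.27 (SE 0.68) had a limma adjusted p of 0.178. Ifit1 overlapped widely, at 0 to 14.9 after PBS and 0 to 74.6 after rAPOE, and Ifit3b was under the minimum mean.

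Rsad2 (viperin), an enzyme that makes a chain-terminating nucleotide, stood at 0, 0, 3.20, 5.27 and 9.65 after PBS and at 93.1, 79.7, 9.03, 41.1 and 55.2 after rAPOE. One value, rAPOE library 3, lay below the highest PBS value, and the difference was 3.86 (SE 1.01, limma adjusted p = 0.106). It passed with a pseudocount of 5, after quantile rescaling and without rAPOE library 3. Its neighbour on chromosome 12, Cmpk2, a mitochondrial nucleotide kinase, was at 0 in the PBS libraries and in rAPOE libraries 1 to 3, and at 9.31 and 10.1 in rAPOE libraries 4 and 5.

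For 6 effectors all 5 PBS libraries held 0 reads, and a bound was set at 3 reads over the group. Mx1, a GTPase gene, was at 33.0, 0, 0, 34.9 and 37.3 after rAPOE, a mean at least 35.1-fold higher. Oasl1, an OAS-like protein, was at 4.71, 0, 9.03, 28.7 and 25.6, at least 22.7-fold higher. Slfn5, a Schlafen family member, was read in rAPOE libraries 4 and 5 alone, at 27.9 and 6.22, and its mean was at least 11.4-fold higher. The other bounds were at least 6.48-fold for Cmpk2, 3.89-fold for Oas2 and 1.45-fold for Oas1a. Of these 6 genes Mx1 reached the minimum mean, and its difference did not pass (3.10, SE 1.38, limma adjusted p = 0.413). Reads carry no molecular identifiers, and these bounds cover the counting error of the group at 0 alone. The rAPOE mean is taken as read, and it rests on 5 reads for Oas1a and 15 for Oas2, each in 2 libraries.

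Other effectors tested had differences of 3.17 for Oasl2, 2.43 for Rtp4, 2.26 for Ifitm2, 2.22 for Ifi27l2a, 1.35 for Slfn2, 1.18 for Parp14, 1.15 for Phf11b, 0.72 for Lgals3bp, 0.54 for Gbp2, 0.51 for Ifit1 and 0.17 for Herc6, with limma adjusted p from 0.233 to 0.974. Usp18, Gbp3, Isg20, Samd9l, Ifi35 and Xaf1 were under the minimum mean, and Gbp3 and Samd9l reached 13.2 and 35.8 in rAPOE library 5 against at most 1.29 after PBS. Slfn8 and Trim30a were the effectors with differences below 0, −0.04 and −0.12. Both were low in rAPOE library 1, at 0 and 10.6, and above every PBS library in rAPOE libraries 4 and 5 for Slfn8 (67.5 and 83.9) and for Trim30a (137 and 166). Ifitm2, Oas1a and Phf11b share 27.5%, 21.1% and 17.1% of the 50-base words in the last 300 bases of their transcripts with other genes, so their reads may be split with those copies. The same share was 8.76% for Oas3, 3.19% for Ifit3b, 1.20% for Isg15, 0.398% for Ifit3 and 0 for the other genes. The strand setting of the counting was not given in the sources used here, so reads from overlapping genes on the other strand cannot be told apart.

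Each injected library's mean over the 41 genes, on the log2 scale, was 2.32, 2.09, 2.39, 2.93 and 2.83 in PBS libraries 1 to 5 and 3.15, 3.73, 3.39, 4.96 and 5.53 in rAPOE libraries 1 to 5. Each rAPOE library was above each PBS library, and rAPOE libraries 4 and 5 were well above the other 3. The group means were 2.51 ± 0.354 and 4.15 ± 1.04 (SD, n = 5 each), while the mean over all genes listed was 3.15 ± 0.275 and 3.16 ± 0.325. By role, the mean was 2.34 ± 1.10 after PBS and 4.09 ± 1.10 after rAPOE for sensors, 4.04 ± 0.537 and 4.82 ± 1.42 for factors, and 2.35 ± 0.226 and 4.08 ± 1.04 for effectors (SD, n = 5 each). Sensor means were 1.72, 0.970, 2.16, 3.73 and 3.12 in PBS libraries 1 to 5 and 2.81, 3.09, 4.36, 4.86 and 5.32 in rAPOE libraries 1 to 5. Factor means were 3.88, 3.21, 4.13, 4.43 and 4.57 against 3.51, 5.61, 3.06, 5.69 and 6.21, so rAPOE libraries 1 and 3 lay below most of the PBS libraries. Effector means were 2.22, 2.13, 2.21, 2.61 and 2.57 against 3.16, 3.60, 3.28, 4.88 and 5.48, with no overlap.

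rAPOE library 5 held the highest value of the table for 27 of the 41 genes and had none at 0, and rAPOE library 4 had 1 at 0. The genes at 0 numbered 15, 10 and 13 in rAPOE libraries 1 to 3 and 19, 25, 18, 9 and 13 in PBS libraries 1 to 5. The number of all genes detected moved with this: 7601 to 8837 in the libraries numbered 1 to 3 of both groups, and 10025 to 11342 in those numbered 4 and 5. Its part in the result was not tested. Within libraries 1 to 3 the mean over the 41 genes was 2.27 after PBS and 3.43 after rAPOE, a difference of 1.16, and within libraries 4 and 5 it was 2.88 and 5.24, a difference of 2.37. These subsets were formed after seeing the data. In limma on libraries 1 to 3 alone Ifitm3 passed as higher, 1 of 22 tested, against 0.0724% of all genes higher and 0.0145% lower. On libraries 4 and 5 alone, with 2 libraries a group, 13 of 31 passed, all as higher, against 1.56% of all genes higher and 1.17% lower: Rsad2, Ifitm3, Irf7, Rtp4, Lgals3bp, Parp14, Slfn8, Isg15, Bst2, Slfn2, Ifi204, Ifit3 and Phf11b. Whether the difference itself differs between these subsets was not tested. Without both libraries numbered 5, 1 gene passed (all genes 0.142% higher and 0.0142% lower) and the median of the 24 tested was 1.30.

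**Figure D4:**
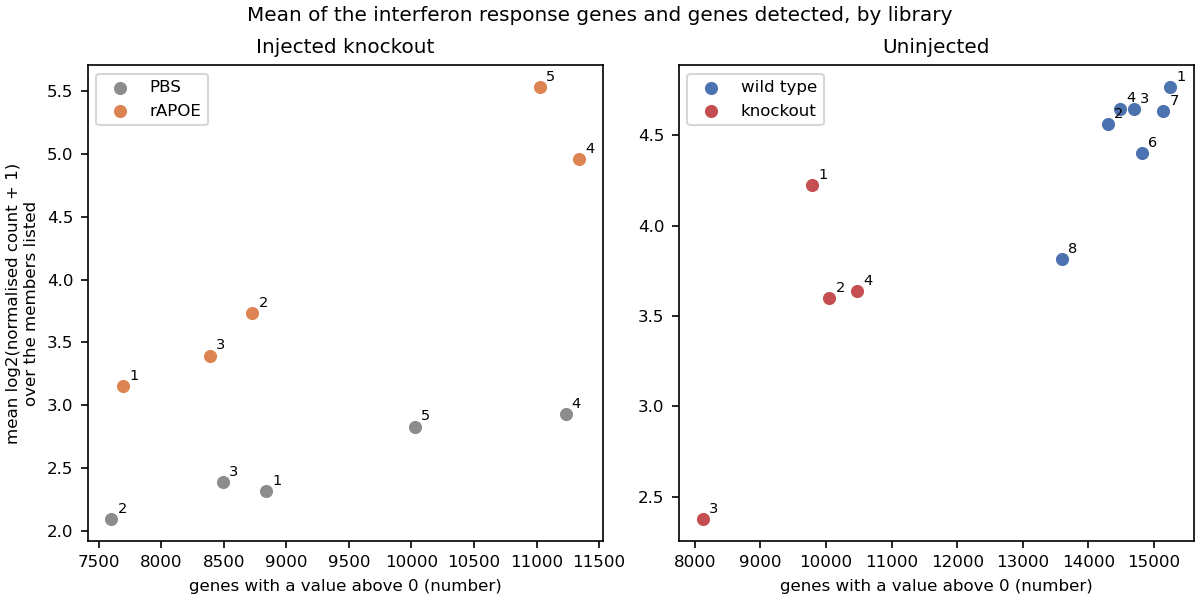
Mean log2(normalised count + 1) of the interferon response genes (vertical axis) against the number of genes with a value above 0 (horizontal axis), one point per library with its number. On the left each rAPOE library lies above each PBS library, and libraries 4 and 5 of both groups lie to the right. On the right the KO libraries lie to the left of the WT libraries.

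Markers of other cells were read in the injected libraries too. The 10 microglial markers summed to 24656, 23813, 24019, 19285 and 22442 in PBS libraries 1 to 5 and to 16955, 14839, 22423, 11711 and 9132 in rAPOE libraries 1 to 5. Of the 10, 3 (P2ry12, Siglech and Gpr34) passed as lower and 0 as higher, against 0.113% and 0.368% of all genes tested. Monocyte markers (7 of 8 listed) summed to 4.80 to 22.5 after PBS and 1.18 to 45.1 after rAPOE, with the highest sum in rAPOE library 5 (45.1). None of the 8 T and NK cell markers was listed. Choroid plexus markers (2 of 6 listed) summed to 0.827 to 267 and 0 to 512. Whether other cells took part in the interferon values was not tested, and in bulk samples fewer cells of a type and less RNA per cell cannot be told apart.

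Outside the 43 genes, interferons themselves were hardly read after injection. Of 21 ligand genes 1 was listed, Ifnb1, at 0 to 6.59 after PBS and at 0 in all rAPOE libraries. It was under the minimum mean. Of 9 receptor and JAK-STAT genes tested, 0 passed in limma or edgeR, and at an unadjusted p under 0.05 0 were higher and 2 lower: Ifnar2, a chain of the interferon-α/β receptor (188 ± 31.9 and 122 ± 30.2, difference −0.64, SE 0.29), and Ifngr1, a chain of the interferon-γ receptor (334 ± 73.6 and 201 ± 65.6, difference −0.75, SE 0.27; SD, n = 5 each). Ifnar1 had a difference of −1.36, Ifngr2 0.54, Il10rb −0.19, Jak1 −0.08, Jak2 −0.91 and Tyk2 1.29. None of 14 genes of the induction pathway and none of 12 negative regulators passed in limma or edgeR, and at an unadjusted p under 0.05 1 of the former, Tlr4, was lower. Over all genes tested, 5.22% were higher and 5.99% lower at that unadjusted threshold.

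Of 44 other interferon-induced genes tested, 3 were higher and 0 lower in limma and in edgeR, and 4 were higher and 1 lower at an unadjusted p under 0.05. Over all genes tested, 0.368% passed as higher and 0.113% as lower in limma. At an unadjusted p under 0.05 the shares of all genes were 5.22% and 5.99%. The median difference of the 44 was 0.23, beside 1.70 for the 28 genes tested of the list of 43. The 3 that passed encode chemokines, which attract leukocytes. Ccl5 rose from 8.53 ± 10.3 to 356 ± 170 (difference 5.82, SE 0.72, limma adjusted p = 1.18e-04). Cxcl10 rose from 57.7 ± 23.0 to 480 ± 307 (2.91, SE 0.40, limma adjusted p = 4.28e-04), and Ccl12 from 334 ± 124 to 1938 ± 1071 (2.43, SE 0.36, limma adjusted p = 0.00122; SD, n = 5 each). In each of the 3 the groups did not overlap, and each passed without both libraries numbered 5.

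Between KO and WT, 1 of the 31 genes tested was higher, Irf9, and 3 were lower, Ifi44, Ifitm3 and Ifi204. Over all 10401 genes tested, 5.14% passed as higher and 19.8% as lower. In edgeR 1 was higher and 2 were lower, against 4.8% and 11.1% of all genes, and at an unadjusted p under 0.05 in limma 3 were higher and 6 lower, against 8.24% and 28.2%. By adjusted p, in limma and in edgeR, the shares of the list were not above those of all genes tested. Of the 43 genes listed, 30 had a difference below 0 (all genes 77.2%), with a median of −0.94 over the 43 and −0.66 over all genes listed. In 1 gene, Irf9, every KO library was above every WT library (all genes 2.13%), and in 3, Ifi44, Zbp1 and Isg20, every KO library was below (all genes 9.02%). The other 12 genes listed had a mean under 10 and were not tested.

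The sensors differed in direction. Ifi204 stood at 7.22 to 70.0 in the WT libraries, with a median of 43.9, and at 12.5, 10.2, 0 and 7.09 in KO libraries 1 to 4. The lowest WT value was that of WT 8, and it lay within the KO range. Ifi204 was lower in KO, with a difference of −2.55 (SE 0.79, limma adjusted p = 0.0300), and of −2.89 without WT 8 (adjusted p = 0.00935). It did not pass in edgeR (−2.37, adjusted p = 0.101), after quantile rescaling (−1.73, limma adjusted p = 0.132) or with the library number as a replicate block. Nor did it pass without any one of WT libraries 1, 2, 3, 4 and 7 or KO library 3 (−2.54 to −1.69, limma adjusted p = 0.0543 to 0.0651). Ifi204 is encoded on chromosome 1, minus strand, from 173747293 to 173766943.

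Zbp1 was read in every WT library, at 2.40 to 14.6 with a median of 9.66, and in no KO library, so the mean was at least 24.5-fold lower in KO, with the bound at 3 reads over the group. It was under the minimum mean and not tested. Ddx58 stood at 19.2 to 79.4 (median 23.7) in WT and at 53.4, 44.5, 47.5 and 55.0 in KO, a difference of 0.53 (SE 0.46, limma adjusted p = 0.424). Ifih1 stood at 36.9 to 157 (median 49.3) in WT and at 68.7, 10.7, 67.0 and 51.9 in KO, a difference of −0.46 (SE 0.54, limma adjusted p = 0.554). For both the highest WT value was that of WT 8. Dhx58 stood at 6.12 to 18.5 (median 10.8) in WT and at 38.0, 9.35, 0 and 22.2 in KO, a difference of −0.33 (SE 0.87, limma adjusted p = 0.807).

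Irf9 was the factor that passed. It stood at 146 to 261 in the WT libraries, with a median of 226, and at 282, 289, 402 and 283 in KO libraries 1 to 4. The groups did not overlap, with WT 8 lowest and KO library 3 highest. The difference was 0.58 (SE 0.19, limma adjusted p = 0.0379), and 0.50 without WT 8 (adjusted p = 0.0252). It passed no longer with no filter on the mean (limma adjusted p = 0.0582) or with the library number as a replicate block. Nor did it pass without any one of WT libraries 1, 2, 3, 4 and 7 or KO libraries 2 and 3 (0.46 to 0.62, limma adjusted p = 0.0510 to 0.112). Irf9 is encoded on chromosome 14, plus strand, from 55603571 to 55610030.

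The other factors did not pass. Irf7 stood at 0 to 18.4 (median 3.47) in WT and at 28.9, 31.2, 1.73 and 20.8 in KO, so 3 of the 4 KO libraries were above every WT library, a difference of 1.50 (SE 0.94, limma adjusted p = 0.265). It passed after quantile rescaling (3.15, adjusted p = 0.00735). Irf1 stood at 188 to 316 (median 244) in WT and at 392, 306, 420 and 150 in KO, a difference of 0.30 (SE 0.26, limma adjusted p = 0.424). Without KO library 4 it passed (0.62, adjusted p = 0.0381). Stat2 stood at 7.89 to 41.5 (median 15.7) in WT and at 11.9, 27.6, 0 and 5.32 in KO, a difference of −1.36 (SE 0.83, limma adjusted p = 0.251).

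Among the effectors, 2 of 23 tested passed, both as lower. Ifitm3 stood at 242, 323, 247, 301, 234 and 282 in WT libraries 1, 2, 3, 4, 6 and 7, at 27.1 in WT 8, and at 52.8, 16.9, 0 and 42.1 in KO libraries 1 to 4. WT 8 thus lay among the KO values and far from the other WT libraries. The gene was lower in KO, with a difference of −3.78 (SE 0.94, limma adjusted p = 0.00914), and of −4.24 without WT 8 (adjusted p = 0.00282). With WT 8 as the one WT library, a comparison in which that library is assumed to vary like the KO group, the difference was −0.98 (adjusted p = 0.932).

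Ifi44, an interferon-induced protein of the cytoplasm, stood at 63.9, 65.2, 45.6, 59.0, 25.6 and 46.9 in WT libraries 1, 2, 3, 4, 6 and 7, at 5.42 in WT 8, and at 0 in all 4 KO libraries. Its mean was at least 126-fold lower in KO, with the bound at 3 reads over the group, and the fitted difference, which depends on the pseudocount, was −5.22 (SE 0.69, limma adjusted p = 8.28e-05), and −5.64 without WT 8 (adjusted p = 1.48e-06). It passed in all 19 alternatives that could test it. Ifi44 is encoded on chromosome 3, minus strand, from 151730922 to 151749960. Isg20, an exonuclease that degrades viral RNA, was read in every WT library at 1.81 to 6.95 (median 4.83; 1 read in WT 8) and in no KO library, at least 12.3-fold lower. The bounds of the other effectors at 0 in KO were at least 14.4-fold for Oas2, 11.8-fold for Oas3 and 8.17-fold for Mx1, all of them also at 0 in WT 8.

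Isg15 and Bst2, which passed after injection, did not pass between KO and WT. Isg15 stood at 19.7 to 43.1 (median 28.8) in WT and at 101, 73.5, 9.51 and 52.8 in KO, a difference of 0.58 (SE 0.57, limma adjusted p = 0.480). KO library 3 was the lowest of the table and the other KO libraries were above every WT library, and without KO library 3 Isg15 passed as higher (1.29, adjusted p = 0.0236). Bst2 stood at 39.7 to 143 (median 82.6) in WT and at 60.7, 135, 140 and 124 in KO, a difference of 0.36 (SE 0.34, limma adjusted p = 0.474). Ifit2 had a difference of −0.21, Ifit3 of −1.25 and Rsad2 of −1.49, with limma adjusted p from 0.296 to 0.893. Other effectors tested ranged from −2.52 for Ifi27l2a, −2.18 for Ifitm2, −2.12 for Phf11b, −2.06 for Gbp3 and −2.01 for Gbp2 to 0.61 for Slfn8, 0.70 for Trim30a and 0.82 for Herc6, with limma adjusted p from 0.0840 to 0.984. Between these lay Rtp4, Ifit3b, Ifi35, Cmpk2, Lgals3bp, Parp14, Usp18 and Slfn2. Ifit1, Oas1a, Oasl1, Oasl2, Slfn5, Samd9l and Xaf1 were under the minimum mean. Ifitm3 thus had a difference of −3.78 between KO and WT and of 3.28 between rAPOE and PBS, 2 comparisons that share no library and come from tables normalised apart.

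**Figure D5:**
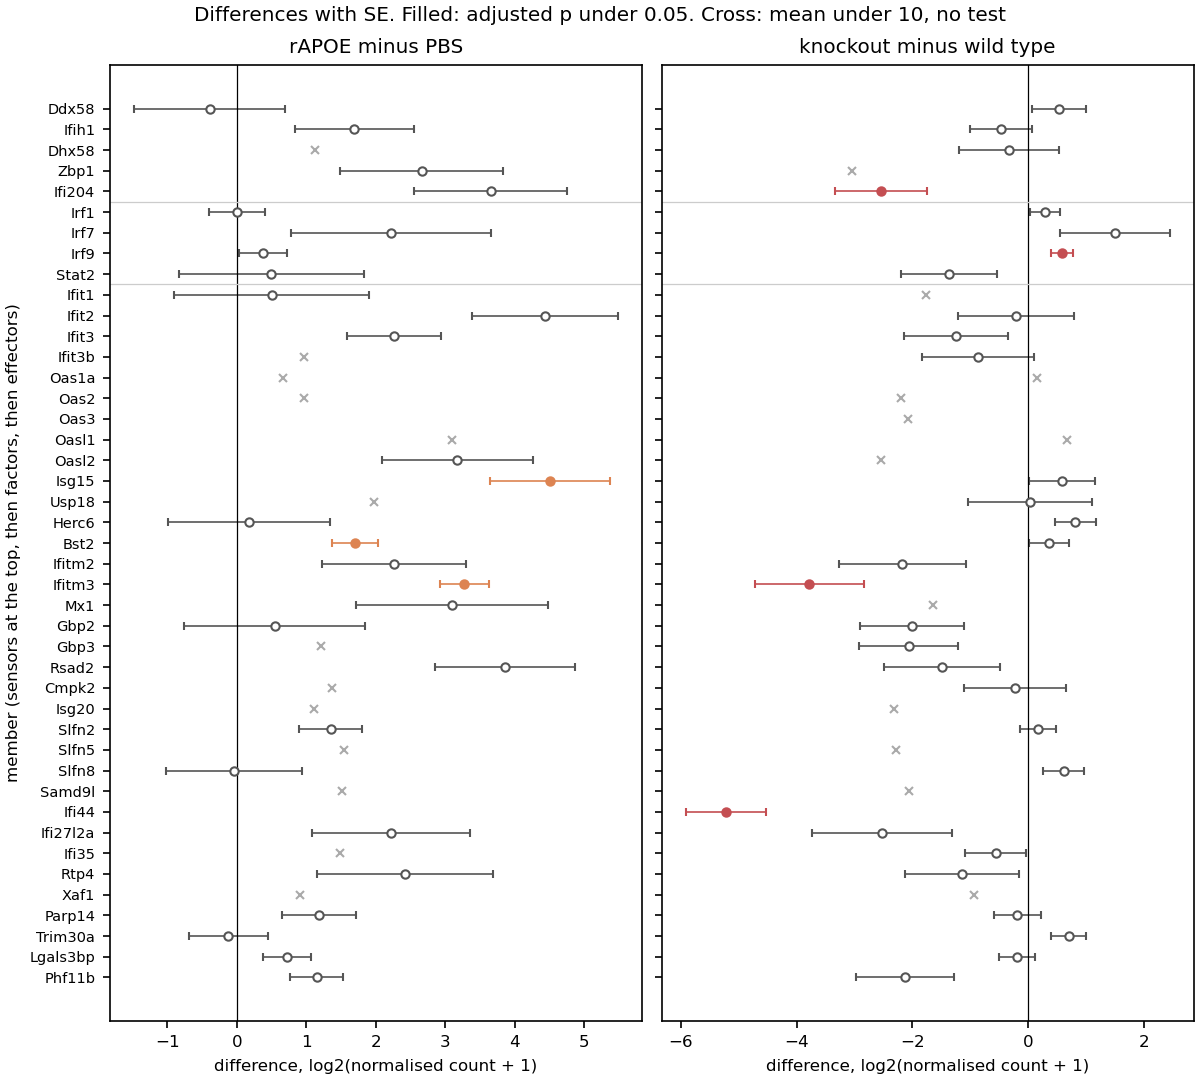
Difference of every gene on the log2(normalised count + 1) scale, rAPOE minus PBS on the left and KO minus WT on the right. Points with bars are the difference and SE of genes tested, filled where the limma adjusted p was under 0.05, and crosses are genes with a mean under 10. On the left 38 of the 41 genes listed lie to the right of 0, and on the right 30 of 43 lie to the left of it.

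Among the fits that left out 1 library, the one without the library labelled WT 8 had the highest counts. Without it 4 genes were higher (Herc6, Irf9, Slfn8 and Trim30a) and 6 lower (Ifi204, Ifi27l2a, Ifi44, Ifitm2, Ifitm3 and Oasl2) of 32 tested, against 7.64% and 23% of all genes in that fit. Ifi27l2a, for example, stood at 35.5 to 101 in the other WT libraries, at 1.81 in WT 8 and at 55.1, 25.4, 0 and 0 in KO. With WT 8 as the one WT library, 0 of 28 genes tested passed, and of all genes 0.421% passed as higher and 0.231% as lower. Without KO library 2, 0 were higher and 5 lower (all genes 4.68% and 21.6%). Without KO library 4, 2 were higher and 5 lower (all genes 4.57% and 20.8%), and without any one of WT libraries 1, 2, 3, 4 and 7, 0 were higher and 2 lower. Over all 10329 to 10350 genes tested, the fits without one of those WT libraries had 402 to 423 higher and 1602 to 1646 lower. Means over the 43 genes were 4.77, 4.56, 4.64, 4.65, 4.40 and 4.63 in WT libraries 1, 2, 3, 4, 6 and 7, 3.81 in WT 8, and 4.22, 3.60, 2.38 and 3.64 in KO libraries 1 to 4. Over the groups this is 4.49 ± 0.320 (SD, n = 7) and 3.46 ± 0.776 (SD, n = 4), beside 4.07 ± 0.0807 and 3.10 ± 0.234 for the mean over all genes listed. By role the WT and KO means were 4.55 ± 0.357 and 3.38 ± 0.809 for sensors, 5.56 ± 0.426 and 5.81 ± 0.840 for factors, and 4.36 ± 0.394 and 3.19 ± 0.783 for effectors. KO library 3 had 27 of the 43 genes at 0, against 9, 13 and 12 in KO libraries 1, 2 and 4, 8 in WT 8 and 0 to 2 in the other WT libraries.

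Several markers moved with these values. Genes detected numbered 13592 to 15248 in WT and 8117 to 10479 in KO, lowest in KO library 3. Monocyte markers (8 of 8 listed) summed to 1365 to 1571 in the WT libraries other than WT 8, to 75.8 in WT 8 and to 19.1 to 205 in KO. T and NK cell markers (8 of 8 listed) summed to 42.4 to 96.6, to 1.81 and to 0 in the same order, and choroid plexus markers (6 of 6 listed) to 56983 to 83031, to 23525 and to 429 to 872. Neutrophil markers (8 of 8 listed) summed to 2040.5 to 2715 in the WT libraries other than WT 8, to 182 in WT 8 and to 1575 to 6191 in KO. In 3 of the 4 KO libraries the sum was above every WT library, but of the 7 markers tested 0 passed as higher and 1 (Mmp8) as lower. Plasmacytoid dendritic cell markers (5 of 6 listed) summed to 864 to 975, to 1641 and to 860 to 1202 in the same order. Of the 4 tested, however, 3 (Ly6d, Cox6a2 and Pacsin1) passed as lower in KO and 0 as higher. Microglial markers summed to 46257 to 49025, to 65185 and to 64575 to 76075 in the same order. Of the 10 tested, 6 passed as higher in KO and 1 (P2ry13) as lower. Over all genes tested, 5.14% passed as higher and 19.8% as lower. The part of genes detected and of these markers in the interferon values was not tested.

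No ligand gene was listed in the genotype table. Of 9 receptor and JAK-STAT genes tested, 5 were higher in KO and 0 lower, at the main setting and without WT 8. Over all genes tested, 5.14% were higher and 19.8% lower at the main setting, and 7.64% and 23% without WT 8. Ifngr1, Ifngr2 and Il10rb passed in each fit that left out 1 library. The count was 4 in edgeR and after quantile rescaling, where Jak1 did not pass, and 3 without WT library 3, WT library 6, KO library 2 or KO library 4, where Ifnar2 did not pass either. Ifngr1 rose from 1011 ± 244 to 2827 ± 360 (difference 1.50, SE 0.17, limma adjusted p = 2.22e-05), and Il10rb, a receptor chain shared by interferon-λ and interleukin-10, from 218 ± 48.6 to 468 ± 60.3 (1.12, SE 0.20; SD, n = 7 and 4). Ifngr2 rose by 0.76, Ifnar2 by 0.48 and Jak1 by 0.47. Tyk2 (0.40), Jak2 (0.00) and Ifnar1 (−0.98) did not pass, and Ifnlr1 was under the minimum mean. Of 16 genes of the induction pathway 6 were higher and 0 lower, against 5.14% and 19.8% of all genes: Tmem173 (STING), Unc93b1, Tlr3, Tlr4, Myd88 and Irf5. Tmem173, the adaptor that cytosolic DNA sensing acts through, rose from 821 ± 117 to 1779 ± 159 (1.12, SE 0.13, limma adjusted p = 3.06e-05). None of 13 negative regulators passed in limma or edgeR. At an unadjusted p under 0.05 in limma 2 were higher and 1 lower, against 8.24% and 28.2% of all genes. Without WT 8, 2 of the 13 passed as higher, against 7.64% of all genes.

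Of 59 other interferon-induced genes tested, 6 were higher and 9 lower in KO, against 5.14% and 19.8% of all genes. Without WT 8 the counts were 7 and 12, against 7.64% and 23%. In both fits the share higher was above that of all genes, and the share lower was not. After quantile rescaling 7 were higher and 4 lower, against 696 and 1330 of all 10401 genes. In edgeR 4 were higher and 3 lower, against 499 and 1159 of all 10401. With a mean of at least 50, 6 of 30 were higher and 0 lower, against 488 and 801 of all 5714 genes. Without KO library 1, 3 were higher and 10 lower, against 454 and 2116 of all 10475 genes. Without WT library 2, 4 were higher and 6 lower, against 423 and 1629 of all 10338 genes. The 6 higher were Igtp, Ly6e, Psmb9, Fcgr1, Dtx3l and Irgm2, and Igtp, a GTPase induced by interferon-γ, rose from 52.9 ± 12.3 to 192 ± 80.9 (1.77, SE 0.31; SD, n = 7 and 4). Among those lower, Plac8, a marker of monocytes, was at 0 in all KO libraries and in 1 WT library, with the lowest fitted difference, −4.84, which depends on the pseudocount. Ifi207 (−4.45), Ifi203 (−3.78) and Mndal (−3.68) belong to the same family of DNA sensors as Ifi204. Ifitm6 and Sp140 were lower too, and of these 6 genes Ifi207, Plac8 and Ifitm6 passed in edgeR.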

How the data were processed

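Microglial RNA of 21 libraries in 4 groups was read as tags near the 3′ end of transcripts (QuantSeq 3′ FWD kit, Illumina MiniSeq, per the labels' protocols). The tools named are DESeq2, HTSeq, R 3.2.3 and Picard 1.8.4, with genome build GRCm38.p3, per the submitters' processing notes. For the aligner, annotation and strand setting, nothing is given in the sources used here. The deposited values are a signal per gene that the authors scaled by a library-wide factor, apart for each table, so no test spans both. Values above 0 were whole multiples of a step, from which reads were recovered. Of 18221 entries in the genotype table, 22 named as dates (0.0966% of the summed values) and 120 at 0 throughout were left out.

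In R 4.3.3, limma 3.58.1 (trend) was fitted to log2(value + 1) for all genes with a mean of at least 10, for rAPOE against PBS and KO against WT, with no covariates. This scale understates the change of low genes. edgeR 4.0.16 (quasi-likelihood, TMM) on recovered reads, other pseudocounts, filters and scalings, and leaving out libraries were alternatives. The limma fits were also run on simulated counts with known changes, drawn at a common mean and dispersion per gene. Those counts held no outlying library and no division by library number, so that run does not cover either. Gene positions come from GENCODE M21 (GRCm38), and promoter windows from RefSeq (GRCm38.p6). Every gene of the list was accounted for; values in every library are given for genes that passed, for sensors and factors and for genes whose groups did not overlap, and other pathway genes are named where they passed, at most 6 per list, with ligands and receptors always. The genes, lists and tests were chosen with earlier results of these data known. One item of the pathway is not reported here.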

Additional observations from a re-analysis of the deposited data

Results flagged for a closer look

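Each gene or mean examined was taken within 1 group of 4, 5 or 7 libraries, and in 7 of 47 such sets of values 1 library stood far from the others by Dixon's criterion, which chance meets in about 1 in 20 sets. Ddx58 was at 0 in PBS library 1, and at 24.0 to 32.8 in the other PBS libraries. Irf7 was at 14.2 in PBS library 5, above the 0 to 1.60 of the others, and Irf9 was at 224 in rAPOE library 1, above 91.7 to 104.

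In the genotype table, the library labelled WT 8 stood apart for Ifih1 (157, others 36.9 to 60.1), for Ifitm3 (27.1, others 234 to 323) and for the mean over the 43 genes (3.81, others 4.40 to 4.77). Irf9 was at 402 in KO library 3 and at 282 to 289 in the other KO libraries. Without KO library 3 the difference of Irf9 was 0.46 (limma adjusted p = 0.112).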

How the results depend on the processing

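After injection, the 3 higher genes became 5 with a pseudocount of 5 and after quantile rescaling (adding Rsad2 and Ifit2), 1 without both libraries numbered 5, 1 in libraries 1 to 3 and 13 in libraries 4 and 5, subsets chosen after seeing the data. Over all 7066 genes tested, the pseudocount of 5 gave 47 higher and quantile rescaling 35. Leaving out 1 library gave 1 to 4 higher, against 13 to 36 over all genes. Irf1, with a difference near 0, had −0.15 to 0.15 when 1 library was left out, −0.0015 after quantile rescaling, −0.22 in libraries 4 and 5 and −0.11 without both numbered 5. Stat2 had −0.11 to 1.24 when 1 library was left out and −0.30 without both numbered 5, and Ddx58 had 0.014 in libraries 4 and 5.

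Between KO and WT, the 1 higher and 3 lower genes became 0 and 7 of 43 with no filter on the mean (median difference −0.94). Over all 18079 genes of that fit 478 were higher and 3191 lower, so the share of the list lower was not above that of all genes. With a mean of at least 50, 1 was lower (median 0.30), against 801 of all 5714 genes. After quantile rescaling 2 were higher. In libraries 1 to 4, 2 were higher, against 528 of all 10210 genes. Libraries 1 to 4 and the fit with WT 8 alone were chosen after seeing the data. Leaving out 1 library gave 0 to 4 higher and 2 to 6 lower, against 402 to 791 and 1602 to 2378 over all genes. Over all genes, quantile rescaling moved the calls from 535 higher and 2061 lower to 696 and 1330, and edgeR to 499 and 1159. Dhx58 had 0.037 with a pseudocount of 5, 1.12 after quantile rescaling, 0.53 in edgeR and −0.99 to 0.77 when 1 library was left out. Ifih1 had −0.72 to 0.14 when 1 library was left out, and Ddx58 had −0.66 with WT 8 alone. The cause was not tested.

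Of the other alternatives, 409 values of single genes kept their direction and side of the threshold, 27 passed no longer and 7 came to pass. Deviations from the group means of same-numbered libraries correlated at −0.0042 to 0.185 after injection and −0.0295 to 0.02 between KO and WT. After injection, libraries 4 and 5 of PBS correlated with libraries 4 and 5 of rAPOE at 0.0973 to 0.185, whether or not the numbers matched. Libraries 1 to 3 of either group correlated with libraries 4 and 5 of the other at −0.106 to −0.0113. The injected libraries were thus divided by number, and the cause was not tested. With the number as a replicate block, 3 genes were higher and 0 lower after injection, against 35 and 17 of all 7066 genes. In KO 1 (Trim30a) was higher and 2 were lower, against 403 and 1378 of all 10210 genes. The injected libraries held 704225 to 1347501 reads, and 13 of the 41 genes listed there were under the minimum mean, as were 12 of the 43 in the genotype table. The part of depth in this was not tested.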
